A study of Mus musculus with 64 samples.

Results

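Myc, Mycn and Ccnd1 were examined in 60 ChIP-seq peak lists from mouse embryonic stem cells and their derivatives. A peak was assigned to a gene when its summit, the position of highest signal, fell inside the gene body or within 100 kb of either end on the mm10 build. The 3 gene windows held 4534 of 12175735 deposited peaks, of which 1266 lay around Myc, 1425 around Mycn and 1843 around Ccnd1. The lists differed greatly in length, so the main counts used the 20000 peaks of each library with the highest deposited fold, the signal at the summit as a ratio to the local background. These are called counted peaks, and 760 of 1094879 lay in the windows: 168 around Myc, 257 around Mycn and 335 around Ccnd1.

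Myc and Mycn encode related transcription factors that drive cell growth, and Mycn is a paralogue prominent in embryonic and neural progenitors. Ccnd1 encodes cyclin D1, which activates the kinases CDK4 and CDK6 to carry cells through the G1 phase. Myc and Ccnd1 are known targets of canonical WNT signalling, in which stabilised β-catenin reaches DNA through the LEF/TCF factors LEF1, TCF7L1 and TCF7L2. SOX2 and the LEF/TCF factors share an HMG DNA-binding domain but differ in the partners they recruit.

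The study mapped SOX2, β-catenin and LEF1, with TCF7L1 and TCF7L2 (which the labels call TCF3 and TCF4), in 4 conditions with 3 biological replicates of each of the 20 groups. All cells are labelled HM1 (129) and 72 h, and by the methods every line descends from HM1 TetON, which itself served as the wild type. The rtTA gene, whose product switches on doxycycline-inducible promoters, is expressed from Rosa26 in the stem cell line that received the transgene. Naive ESC were wild-type cells in 2i medium, which holds 3 μM CHIR, a GSK3 inhibitor that activates WNT signalling, and 500 nM PD0325901, a MEK inhibitor. Caudal epiblast-like cells (CEpiLC) were wild-type cells kept in N2B27 with 10 ng/ml bFGF and 5 μM LGK974, a blocker of WNT secretion, with CHIR99021 added from day 2 to day 3. SOX2-ON and SOX2-OFF cells had the same differentiation but lacked endogenous Sox2 (Sox2-/-) and carried a doxycycline-inducible Sox2 transgene at the HPRT locus. SOX2-ON cells kept 1 μg/ml doxycycline, whereas it was withdrawn from SOX2-OFF cells during differentiation. The transgenic cells had been picked as clones, and the number of clones in these libraries is not given in the sources used here. All 4 conditions therefore had CHIR, naive ESC and CEpiLC differed in medium and cell state as well as in SOX2, and feeder fibroblasts had been removed by plating.

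The lists held 1628 to 991719 peaks with a median of 106232, and 10 of the 60 lists were shorter than 20000, so all of their peaks were counted. Of these short lists 6 came from CEpiLC, 1 from SOX2-ON, 3 from SOX2-OFF and 0 from naive ESC. The shortest, TCF7L1 in CEpiLC replicate 1, held 1628. The other CEpiLC ones were β-catenin replicates 2 and 3 (15201 and 10930), LEF1 replicates 1 and 2 (4443 and 16518) and TCF7L2 replicate 1 (4627). In SOX2-OFF they were replicate 2 of β-catenin (3423), LEF1 (17493) and TCF7L2 (4134), and in SOX2-ON TCF7L1 replicate 2 (16482). SOX2 lists of the SOX2-OFF cells held 56263, 375980 and 224107 peaks, so SOX2 immunoprecipitation still gave peaks after withdrawal. RNA was not among the data analysed here, so binding cannot be set beside expression of the 3 genes.

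Overlapping counted peaks (by 1 bp or more, over all 60 libraries) were joined to 1 site, which gave 71 sites around Myc, 65 around Mycn and 85 around Ccnd1. Most sites (160 of 221) had a peak in 1 library only, as did 486093 of 582183 sites across the genome. A peak in 3 of 3 libraries of at least 1 group was found at 3 Myc, 6 Mycn and 10 Ccnd1 sites, called recurrent here. Distances below run from the start of the gene to the summit of the strongest peak, along the direction of transcription.

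The sequences around the strongest summits of 7 of the 19 recurrent sites are shown because these sites carry the main contrasts between genes, targets and conditions. Each is 121 bp of the plus strand of GRCm38.p6, the mm10 build, centred on the summit. Capitals mark matches to CATTGT or CTTTGT, read as SOX, and to CTTTGA, read as TCF, on either strand.
Myc, 6.3 kb upstream, chr15:61979027-61979147: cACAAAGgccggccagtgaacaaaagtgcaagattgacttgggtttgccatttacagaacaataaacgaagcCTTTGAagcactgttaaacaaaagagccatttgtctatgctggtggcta
Myc, 46.9 kb downstream, chr15:62032181-62032301: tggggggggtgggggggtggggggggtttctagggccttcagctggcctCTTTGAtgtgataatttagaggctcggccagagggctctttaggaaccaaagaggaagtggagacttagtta
Mycn, 45.7 kb upstream, chr12:12987560-12987680: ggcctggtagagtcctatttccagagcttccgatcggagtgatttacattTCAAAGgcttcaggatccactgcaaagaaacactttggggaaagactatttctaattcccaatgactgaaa
Ccnd1, 31.9 kb downstream, chr7:144907939-144908059: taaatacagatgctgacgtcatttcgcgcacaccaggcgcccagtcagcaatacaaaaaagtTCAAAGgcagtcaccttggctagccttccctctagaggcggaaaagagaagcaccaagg
Ccnd1, 61.5 kb downstream, chr7:144878378-144878498: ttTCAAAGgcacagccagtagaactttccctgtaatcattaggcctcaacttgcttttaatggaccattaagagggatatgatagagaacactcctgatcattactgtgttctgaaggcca
Ccnd1, 54.3 kb downstream, chr7:144885591-144885711: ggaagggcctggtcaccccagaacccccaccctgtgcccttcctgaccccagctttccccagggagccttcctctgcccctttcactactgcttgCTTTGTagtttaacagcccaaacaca
Ccnd1, 3.6 kb upstream, chr7:144943464-144943584: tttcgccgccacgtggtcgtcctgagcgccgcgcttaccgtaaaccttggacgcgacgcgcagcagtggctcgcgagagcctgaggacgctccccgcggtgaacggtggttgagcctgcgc
In the first sequence the lone TCF match lies 14.5 bp from the summit, and an inverted SOX match (ACAAAG) lies at its left edge. At 46.9 kb from Myc, 45.7 kb from Mycn and 31.9 kb from Ccnd1 the TCF match is 8.5, 7.5 and 4.5 bp from the summit. The site 61.5 kb from Ccnd1 holds a TCF match 55.5 bp away, that at 54.3 kb a SOX match 37.5 bp away, and that at 3.6 kb neither.

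**Figure D1:**
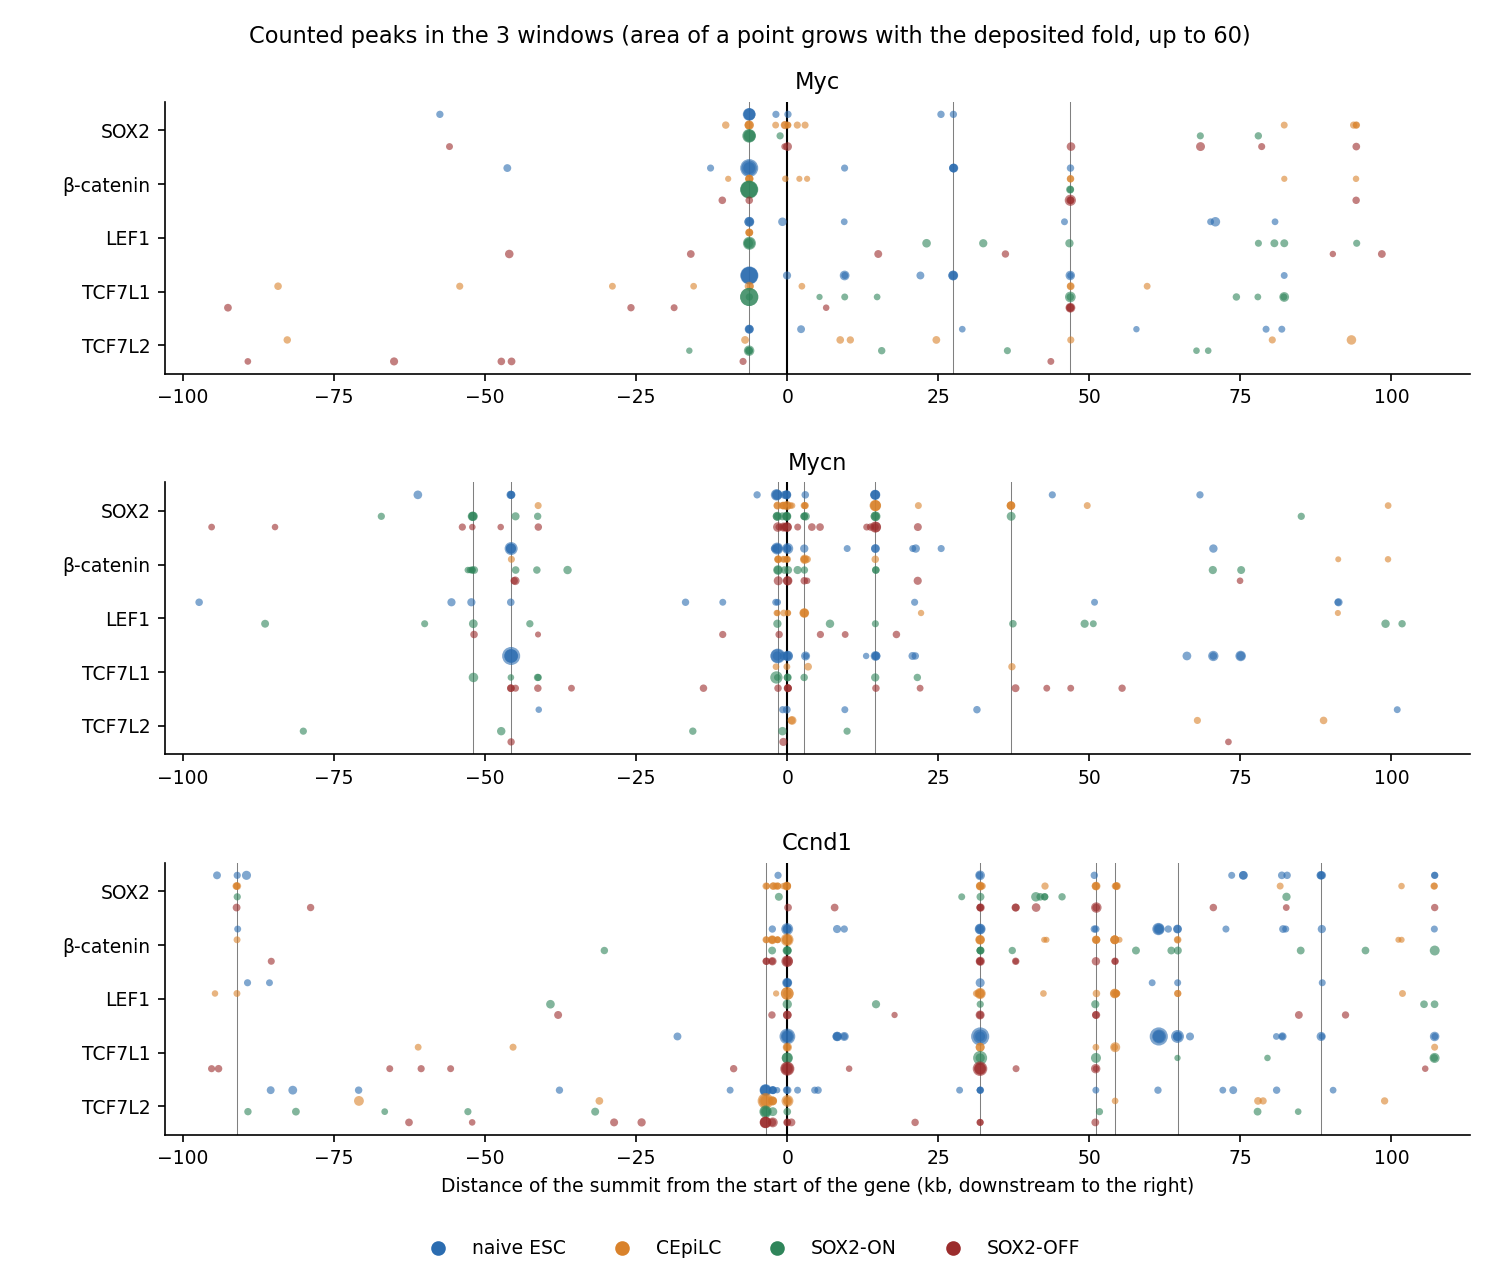
Counted peaks in the 3 windows by distance of the summit from the start of the gene (x axis, kb) and by target (y axis), coloured by condition, with 3 libraries per condition on each line and point area growing with deposited fold. Grey lines mark the 17 named sites, and peaks of several targets line up 6.3 kb upstream of Myc, at the starts of Mycn and Ccnd1 and 31.9 kb downstream of the Ccnd1 start.

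At Myc, 1 site stood out by the number of libraries that shared it. It lay in intergenic DNA 6.3 kb upstream (chr15:61978258-61979546) and had a counted peak in 43 of 60 libraries, a number that 675 of 582183 sites (0.116%) reached. All 5 proteins were found there in every naive ESC and every SOX2-ON library. In SOX2-OFF cells it held 1 counted peak among the 15 libraries of the 5 targets. Of these, the replicate 2 lists of β-catenin, LEF1 and TCF7L2 were short, at 3423, 17493 and 4134 peaks.

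The deposited folds showed the same order at this site. SOX2 reached 23.2, 28.2 and 23.5 in the 3 naive ESC libraries, while CEpiLC gave 11.7, 8.65 and 13.7. SOX2-ON gave 21, 32.4 and 27.5. In SOX2-OFF replicate 1 had no deposited SOX2 peak, and replicates 2 and 3 had peaks of 4.98 and 6.28 that fell outside the 20000 strongest. The CEpiLC values were all below those of naive ESC and SOX2-ON, and the SOX2-OFF values were below all others.

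For β-catenin the folds were 58.9, 23.7 and 42.1 in naive ESC. CEpiLC libraries had 9.94, 7.81 and 9.32, and those of SOX2-ON 53.1, 52.8 and 80. Of the SOX2-OFF libraries only replicate 1 had a peak, of 7.75. The list of SOX2-OFF replicate 2 held 3423 peaks, so a missing peak there does not show absence of binding. SOX2-ON replicate 3 placed this site at rank 51 of its 461476 β-catenin peaks. Naive ESC and SOX2-ON thus did not overlap with CEpiLC or SOX2-OFF.

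LEF1, which usually acts as an activator with β-catenin, gave folds of 7.95, 14.3 and 15.5 in naive ESC and 5.68, 8.35 and 8.63 in CEpiLC. The SOX2-ON libraries gave 20.7, 29.3 and 12.6. LEF1 had a peak of any strength there in 0 of the 3 SOX2-OFF lists. The naive ESC and CEpiLC ranges overlapped for LEF1.

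TCF7L1, best known as a repressor of WNT targets in pluripotent cells, gave the highest fold at any site of the 3 windows. Its folds were 52, 52.1 and 120 in naive ESC and 6.7, 110 and 140 in SOX2-ON. The SOX2-ON libraries disagreed with each other, since replicate 1 lay below both naive ESC and the other SOX2-ON libraries and its list held 21224 peaks. In CEpiLC replicate 1, the shortest list of all, had no peak, and replicates 2 and 3 gave 6.12 and 12.3. SOX2-OFF replicates 2 and 3 had uncounted peaks of 4.17 and 3.5.

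TCF7L2 was weaker there, at 7.24, 10.8 and 12.3 in naive ESC and 9.22, 6.91 and 17.7 in SOX2-ON. It had 1 counted peak in CEpiLC, of 8.36, and 1 uncounted peak of 3.49 in SOX2-OFF. Their summits lay at -685 and -369 bp from the strongest summit of the site, as did the SOX2-OFF SOX2 peak of 4.98, at -369 bp. Within 150 bp of the strongest summit TCF7L2 had a counted peak in 0 of 3 CEpiLC libraries. SOX2 in 3 of 3 libraries of naive ESC, CEpiLC and SOX2-ON and in 0 of 3 of SOX2-OFF was seen at 130 sites of the genome, and the same pattern for LEF1 at 5. The Myc site was the only 1 of 582183 sites with both, a pattern chosen here after its values were seen and given without a test.

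**Figure D2:**
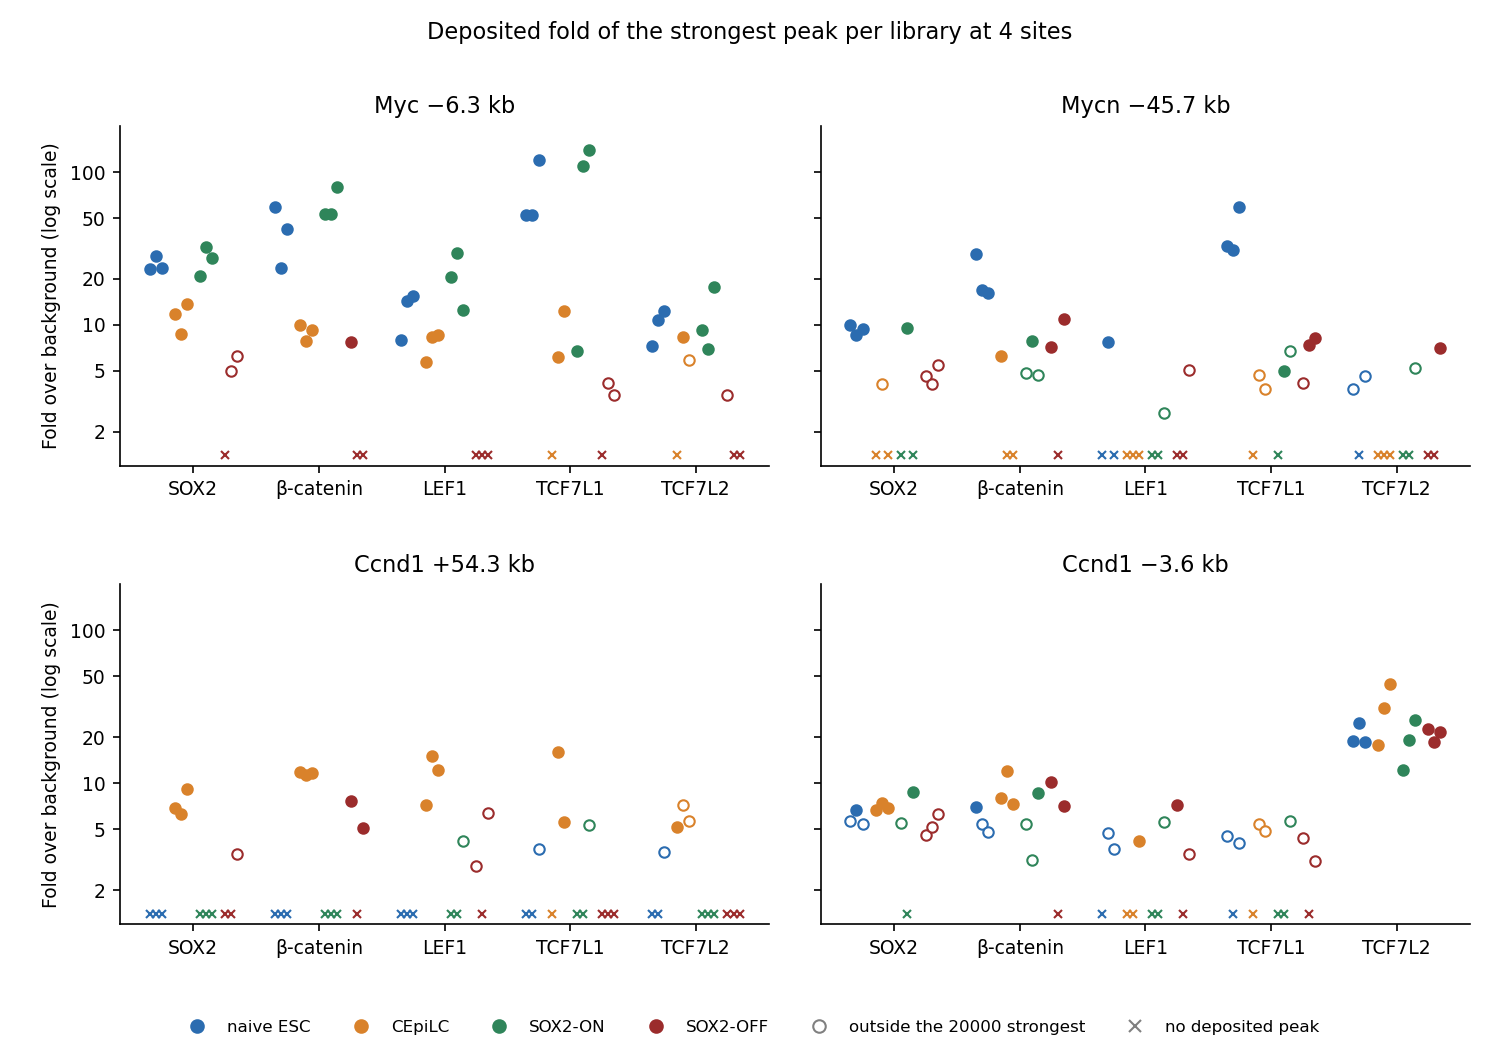
Deposited fold (y axis, log scale) of the strongest peak per library at 4 sites, by target and condition, with 1 point per library, open points for peaks outside the 20000 strongest and crosses for no deposited peak. At 6.3 kb upstream of Myc the SOX2-OFF points are open, crossed or low, while 3.6 kb upstream of Ccnd1 TCF7L2 is present in all 12 libraries.

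The other 2 recurrent Myc sites lay downstream, outside any annotated gene. The site at 46.9 kb (chr15:62031969-62032670), between Myc and Pvt1, a long noncoding RNA gene, had counted β-catenin peaks in 1, 2, 2 and 3 of 3 libraries of naive ESC, CEpiLC, SOX2-ON and SOX2-OFF. TCF7L1 had 2, 2, 2 and 3. In SOX2-OFF β-catenin reached 20.8, 6.68 and 8.49 and TCF7L1 9.75, 15.2 and 8.74, whereas SOX2 was counted in 1 of 12 libraries, a SOX2-OFF library. This site therefore kept β-catenin and TCF7L1 peaks in the SOX2-OFF cells in which the upstream site had 1 β-catenin and 0 TCF7L1 counted peaks.

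The site at 27.5 kb (chr15:62012503-62013088) was seen in naive ESC. β-Catenin gave 10.9, 11.9 and 10.7 and TCF7L1 14.1, 9.31 and 15.3 there, and neither had any deposited peak in the 9 libraries of the other conditions. A SOX2 peak was counted in 1 naive ESC library. Counted peaks of both proteins in 3 of 3 naive ESC libraries and 0 of the 9 others were found at 1125 sites of the genome.

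Mycn had 6 recurrent sites, against 3 at Myc, and SOX2 was the protein with the most counted peaks around it, 6.92 per library on average against a median of 2.42 over 21938 protein-coding genes. A site spanning the gene start (chr12:12941331-12944496, strongest summit 1.58 kb upstream) had a counted peak in 41 of 60 libraries. SOX2 was present in all 12 of its libraries, SOX2-OFF included, with folds from 5.4 to 21.9. It is 3166 bp long and joins several summits, and within 150 bp of the strongest summit the number of libraries fell from 41 to 25 and SOX2-OFF kept 1 of 3.

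The site 14.5 kb downstream of the Mycn start, past the end of the gene (chr12:12926761-12928411), was a narrower SOX2 site. SOX2 gave 14.1, 13.4 and 16.6 in naive ESC and 19.9, 20.9 and 17.2 in CEpiLC. With doxycycline (SOX2-ON) it gave 7.09, 13.6 and 14.8, and without (SOX2-OFF) 5.94, 20.4 and 16.7. All 12 summits lay within 150 bp of the strongest, and the SOX2-ON and SOX2-OFF folds overlapped. For TCF7L1 all 3 naive ESC libraries had a counted peak there and 0 of 3 CEpiLC libraries did, while LEF1 was counted in 1 of 12 libraries and TCF7L2 in 0. SOX2 peaks in all 12 libraries were found at 818 sites of the genome, 2 of them at Mycn.

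The site 45.7 kb upstream of Mycn (chr12:12986774-12988062) lies at the first exon of the long noncoding RNA Gm35208. TCF7L1 reached 32.9, 31.1 and 59.3 in naive ESC and β-catenin 29.2, 16.9 and 16.1. In CEpiLC no TCF7L1 peak was counted, with uncounted folds of 4.7 and 3.78 in replicates 2 and 3, and β-catenin was counted once, at 6.21. SOX2-ON did not resemble naive ESC here as it did at Myc: TCF7L1 was counted in 1 SOX2-ON library at 5.01 and in 2 SOX2-OFF libraries at 7.39 and 8.17.

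Within Mycn, an intronic site 2.81 kb from the start (chr12:12938424-12939433) had LEF1 peaks of 11.4, 10.2 and 14.7 in the 3 CEpiLC libraries and no counted LEF1 peak elsewhere. SOX2 was counted there in 1, 3, 3 and 0 of 3 libraries of naive ESC, CEpiLC, SOX2-ON and SOX2-OFF. In SOX2-OFF uncounted SOX2 peaks of 3.92 and 4.16 remained in 2 libraries. The last exon of Gm35208, 51.9 kb upstream of Mycn (chr12:12993528-12994272), had SOX2 folds of 13.9, 13 and 10.6 and β-catenin folds of 7.43, 4.73 and 8.1 in SOX2-ON, and no counted SOX2 or β-catenin peak in naive ESC or CEpiLC. Only 6 of the 11 libraries counted at that site had a summit within 150 bp of the strongest summit. At 37.1 kb downstream, in an exon of the noncoding 4930519A11Rik, SOX2 was counted in all 3 CEpiLC libraries, at 9.67, 9.56 and 11.5, and in 1 other SOX2 library, SOX2-ON replicate 2 at 11.8.

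Ccnd1 combined sites shared by every condition with sites found in fewer conditions. The site at its start (chr7:144939390-144940755) had counted peaks in 44 of 60 libraries, the most of any site in the windows. Its strongest summit lies 16 bp inside the annotated gene and 40 bp upstream of the first exon of the coding transcript. β-Catenin was present in all 12 libraries, from 8.42 to 27.8, and TCF7L1 in 11 of 12, up to 44.4. LEF1 was counted in 3, 3, 1 and 2 of 3 libraries of naive ESC, CEpiLC, SOX2-ON and SOX2-OFF, and 2 of the CEpiLC folds were 27.6. SOX2 was counted in 3 of 3 CEpiLC libraries at 8.28, 9.22 and 11.6 and in 1 of the 9 others, although uncounted peaks in 2 naive ESC libraries reached 4.68 and 5.65.

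The second shared Ccnd1 site lay 31.9 kb downstream, past the end of Ccnd1, in an intron of the noncoding Gm39119 and nearest to the start of LTO1 (chr7:144907593-144908280). It was counted in 43 of 60 libraries, with β-catenin in 12 of 12 and TCF7L1 in 10 of 12. TCF7L1 reached 34.2, 15.8 and 68.2 in naive ESC and 12 and 12.1 in the CEpiLC libraries with a peak. Its SOX2-ON peaks had 12.8 and 34.6, its SOX2-OFF peaks 20, 37.5 and 25.2. TCF7L1 was thus counted in 3 of 3 SOX2-OFF and 2 of 3 SOX2-ON libraries. LEF1 reached 11.2, 20.7 and 14.4 in CEpiLC. β-Catenin in all 12 libraries was found at 874 sites of the genome, 2 of them at Ccnd1.

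TCF7L2 had its highest folds of the 3 windows upstream of Ccnd1. At the site 3.6 kb upstream (chr7:144940860-144943782) it was counted in 12 of 12 libraries, all within 150 bp of the strongest summit. Its folds were 18.8, 24.8 and 18.7 in naive ESC and 17.9, 31 and 44.6 in CEpiLC. The transgenic cells gave 12.2, 19.2 and 26 with doxycycline and 22.6, 18.7 and 21.5 after its withdrawal. The 4 ranges overlapped, and every library placed the site between rank 356 and rank 761. TCF7L1 was counted there in 0 of 12 libraries, with 7 uncounted peaks up to 5.7. TCF7L2 in 12 of 12 with TCF7L1 in 0 of 12 was found at 501 sites of the genome, a pattern chosen after the values of this site were seen.

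The sequence of this site, shown above, holds no CTTTGA. Within 100 bp of the summit CTTTGA was present at 4.39% of those 501 sites, at 38% of all 26205 recurrent sites, at 66.4% of sites with LEF1 in 3 of 3 libraries of a condition, at 53.4% of those with TCF7L1 and at 37% of those with TCF7L2. The SOX letters were present at 48.2% of recurrent sites and at 58.8% of those with SOX2. Of the 17 named sites, 6 held the TCF and 6 the SOX letters, and 1 held both. The site with both was that 6.3 kb upstream of Myc, where 16.4% of recurrent sites held both. At the Ccnd1 start the match was centred 0.5 bp from the summit. The letters chosen here for SOX and TCF differ in their last base, so 1 stretch read in 1 direction cannot match both. That follows from the choice of letters, and the counts do not separate SOX sites from LEF/TCF sites. A match is a description of the sequence only.

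Other Ccnd1 sites had peaks in fewer conditions. The site 54.3 kb downstream (chr7:144885091-144885972), nearest to the start of Fgf15, differed between CEpiLC and naive ESC. SOX2 gave 6.86, 6.34 and 9.16, β-catenin 11.8, 11.3 and 11.6 and LEF1 7.26, 15 and 12.2 in the 3 CEpiLC libraries, and none of the 3 had a deposited peak in naive ESC. The strongest SOX2 summits of the 3 CEpiLC libraries lay at -197, -187 and -261 bp from that of the site, a TCF7L1 peak. Positions run along the plus strand, where the SOX match began at 35 bp. Within 150 bp of the strongest summit 1 of the 3 CEpiLC libraries had a SOX2 summit. In the transgenic cells β-catenin was counted in 2 of 3 SOX2-OFF libraries, at 7.64 and 5.13, and in 0 of 3 SOX2-ON libraries. SOX2, β-catenin and LEF1 together in 3 of 3 CEpiLC but 0 of 3 naive ESC libraries were found at 186 sites of the genome.

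The site 61.5 kb downstream (chr7:144877976-144878645) was the reverse. TCF7L1 gave 33.3, 24.1 and 61.9 and β-catenin 25.9, 11.7 and 19.3 in naive ESC, with no counted peak of either in the 9 libraries of the other conditions, where uncounted peaks of 2.51 (β-catenin) and 2.99 (TCF7L1) remained. Of the 1125 sites with this pattern, the 3 windows held this one and that 27.5 kb downstream of Myc. It is a recurrent site outside the 8 named at Ccnd1, and was picked out after its values were seen, as was a TCF7L1 site in the last exon of Ccnd1, 8.25 kb from the start, counted in 3 of 3 naive ESC libraries.

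Of the remaining named Ccnd1 sites, that at 64.6 kb had TCF7L1 in 3 of 3 naive ESC libraries, at 10.2, 14.9 and 28.8, and in 1 of the 9 others. That at 88.4 kb, in an intron of Fgf4, had SOX2 in 3 of 3 naive ESC libraries, at 10.1, 9.47 and 9.92, and no deposited SOX2 peak elsewhere. The sites at 51.2 kb downstream and 91.2 kb upstream had SOX2 in 3 of 3 CEpiLC libraries and in 3 of the 9 others each.

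**Figure D3:**
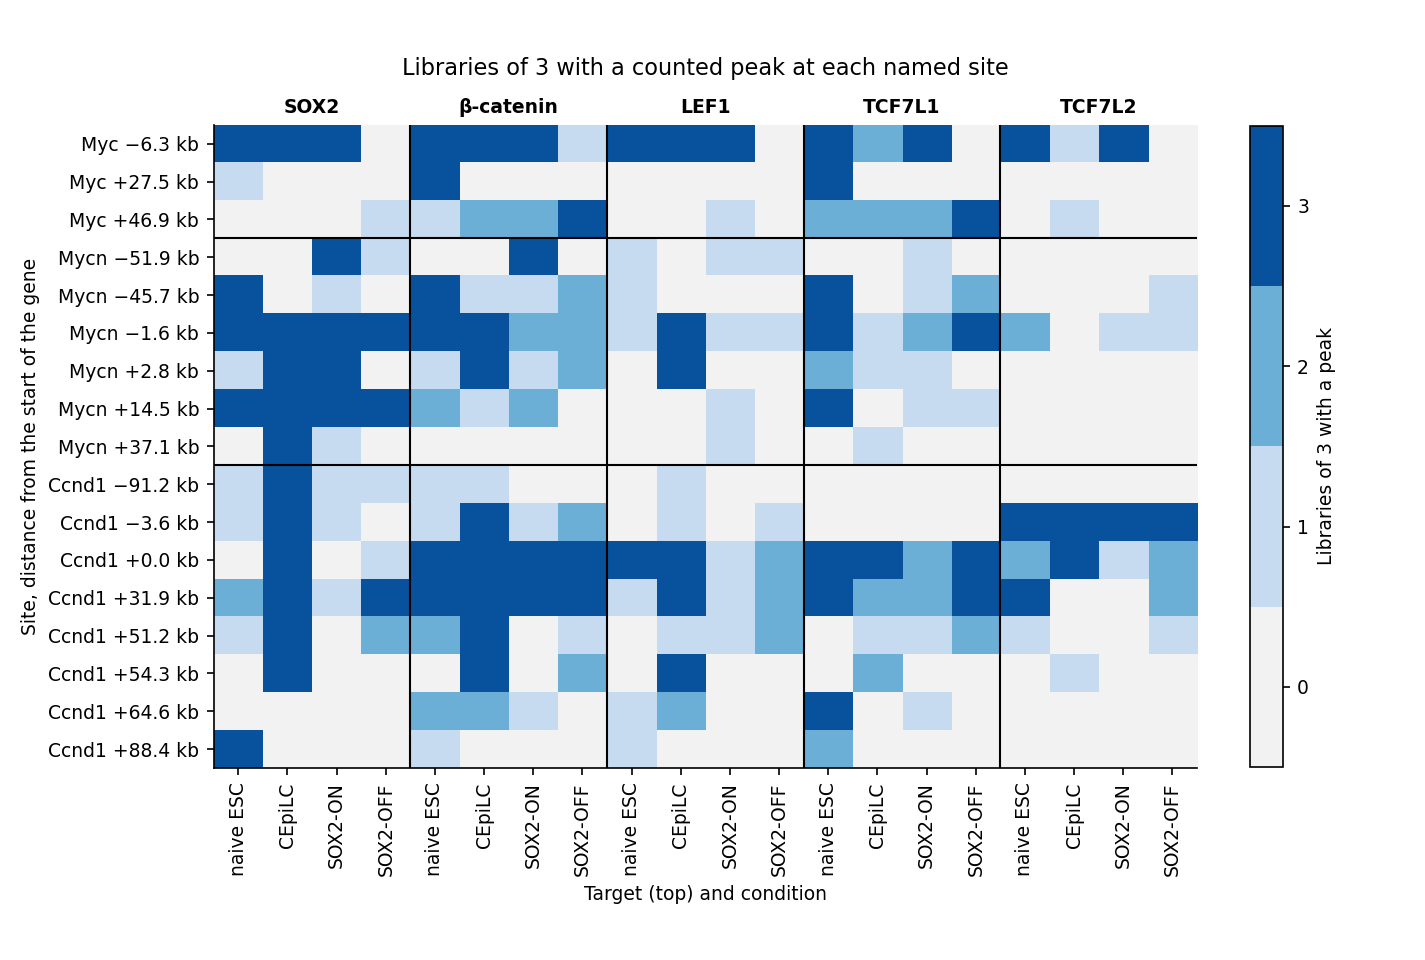
Number of libraries of 3 with a counted peak at each of the 17 named sites (rows, by gene and distance from its start) for each target and condition (columns), from 0 in grey to 3 in dark blue. The Myc row at −6.3 kb is at 3 for all 5 targets in naive ESC and SOX2-ON, at 1 to 3 in CEpiLC and at 0 or 1 in SOX2-OFF, and the Ccnd1 row at −3.6 kb is dark for TCF7L2 in every condition.

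A site was called differential for a target whose counted peaks filled 3 of 3 libraries under one condition but 0 of 3 under its counterpart, among sites with a peak in at least 3 of those 6 libraries. The smallest p that exact permutation of 3 and 3 libraries allows is 0.1, so these calls carry no p-value. Between CEpiLC and naive ESC, TCF7L1 differed at 6 of 13 sites in the windows, against 71.2% of sites across the genome, all 6 being present in naive ESC. With the lists of a target cut to equal length 0 of the 6 TCF7L1 calls were left, and the part of list length was not tested. SOX2 differed at 5 of 15 (34.8% across the genome), 3 of them present in CEpiLC. β-Catenin differed at 3 of 14 (50.9%), LEF1 at 2 of 8 (40.8%), both present in CEpiLC, and TCF7L2 at 1 of 4 (21.7%). The shares in the windows were near or below the background, and so are no result about these genes.

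Between SOX2-ON and SOX2-OFF, SOX2 differed at 2 of 6 sites (43.7% across the genome), the upstream Myc site and the Mycn intron. β-Catenin differed at 1 of 9 (22.8%), 51.9 kb upstream of Mycn, and LEF1 at 1 of 4 (33.4%), TCF7L1 at 1 of 8 (8.92%) and TCF7L2 at 1 of 3 (9.68%), each at the upstream Myc site. The shares of TCF7L1 and TCF7L2 thus rest on 1 site each. All 6 calls were present in SOX2-ON. In Ccnd1 no site was called for any of the 5 targets in this comparison. Read over all deposited peaks, where absence needs 0 peaks of any strength, LEF1 at the upstream Myc site was the only 1 of the 6 calls that held.

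The number of counted peaks per window was then compared between high SOX2 (naive ESC and SOX2-ON) and low SOX2 (CEpiLC and SOX2-OFF). The comparison asks whether binding around a gene moves with SOX2 across both cell lines. Labels were exchanged within each line in a two-sided exact permutation test with 400 assignments, whose smallest p is 0.005, for every protein-coding gene, and p was adjusted over all genes of a target by the Benjamini-Hochberg method. After adjustment 0 genes passed 0.05 for any target, which is 0% of 21245 genes for SOX2 and likewise 0% for the others. At an unadjusted p under 0.05 SOX2 had 2711 genes (12.8%) and β-catenin 2493 (11.8%). LEF1 had 937 (4.38%), TCF7L1 had 1551 (7.28%) and TCF7L2 had 903 (4.23%).

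Of the 15 pairs of a member and a target, 1 had an unadjusted p under 0.05, LEF1 at Myc. LEF1 counts were 3, 3 and 3 in naive ESC against 1, 1 and 1 in CEpiLC. SOX2-ON had 3, 3 and 4 and SOX2-OFF 2, 1 and 3. The difference between high and low SOX2 was 1.67 peaks (exact permutation p = 0.015, adjusted p = 0.92). The wild-type groups did not overlap, the transgenic groups did, and the adjusted value did not pass. The difference was 0.667 with lists of equal length (exact permutation p = 0.3) and 0.833 with a 50 kb window (exact permutation p = 0.22). Ccnd1 instead reached an unadjusted p under 0.05 with lists of equal length, with differences of -2 for β-catenin (exact permutation p = 0.01, adjusted p = 0.163) and -1.83 for LEF1 (exact permutation p = 0.01, adjusted p = 0.669).

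SOX2 at Ccnd1 went the other way. Counts were 4, 6 and 7 in naive ESC against 11, 9 and 10 in CEpiLC. SOX2-ON had 2, 3 and 5 and SOX2-OFF 3, 3 and 9. The difference between high and low SOX2 was -3 peaks (exact permutation p = 0.05, adjusted p = 0.349). CEpiLC lay above naive ESC without overlap, whereas SOX2-ON and SOX2-OFF overlapped and 1 SOX2-OFF library carried their difference. TCF7L2 at Ccnd1 was 10, 8 and 9 in naive ESC and 4, 6 and 5 in CEpiLC, but 6, 3 and 4 in SOX2-ON and 4, 4 and 8 in SOX2-OFF, and the difference between high and low SOX2 was 1.5 (exact permutation p = 0.29, adjusted p = 1), and -0.5 with lists of equal length.

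TCF7L1 counts separated the wild-type groups at Mycn and Ccnd1. At Mycn they were 7, 8 and 8 in naive ESC and 0, 2 and 2 in CEpiLC, and at Ccnd1 8, 10 and 8 against 1, 4 and 6. In the transgenic cells Mycn had 0, 5 and 6 in SOX2-ON and 3, 4 and 9 in SOX2-OFF, which overlap, and Ccnd1 had 1, 4 and 4 against 5, 7 and 5, which do not overlap and run in the opposite direction. The lowest CEpiLC value came in both genes from the list of 1628 peaks, and the other 2 CEpiLC libraries also lay below naive ESC. The lowest SOX2-ON value came in both from replicate 1, whose list held 21224 peaks. SOX2-ON replicates 2 and 3 held 16482 and 247018, and the SOX2-OFF lists 283822, 38535 and 132330. List length was varied only in the alternatives given below, and its part by itself was not tested.

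Whether the change differed between the lines was tested by exchanging line labels within each SOX2 level, again with 400 assignments. This exchanges naive ESC with SOX2-ON, which also differ in medium and cell state, and CEpiLC with SOX2-OFF. A small p therefore cannot tell line from medium and cell state. For TCF7L1 naive ESC minus CEpiLC less SOX2-ON minus SOX2-OFF was 8 peaks at Mycn (exact permutation p = 0.005, adjusted p = 0.503) and 7.67 at Ccnd1 (exact permutation p = 0.02, adjusted p = 0.517). An unadjusted p under 0.05 was reached by 7.72% of 21319 genes. The other 13 pairs had an unadjusted p of at least 0.075. With the TCF7L1 lists cut to equal length (1628 peaks), both values became 0.667 (exact permutation p = 0.4 at Mycn and 0.65 at Ccnd1, adjusted p = 1). That cut also lowered the counts themselves, since 11892 genes kept a TCF7L1 peak against 21319 before. The smaller values are therefore given without a reading.

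**Figure D4:**
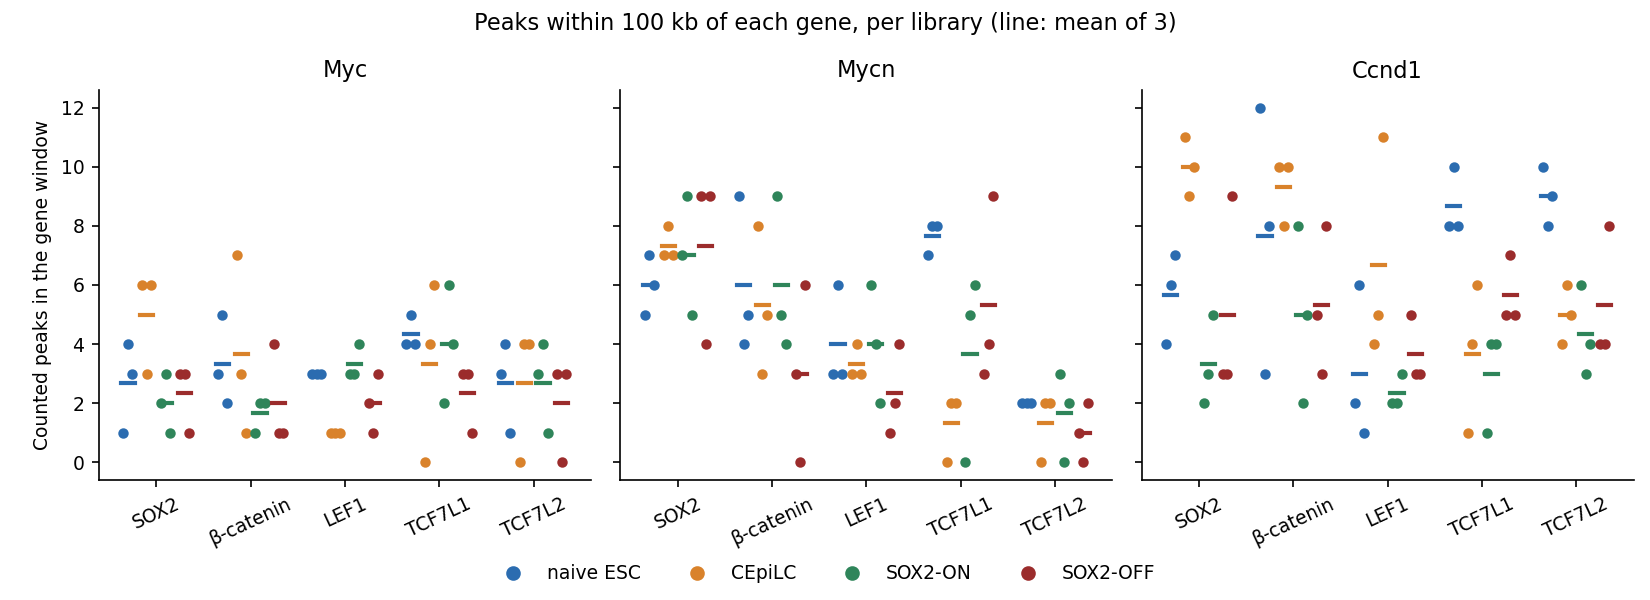
Counted peaks in the window of each gene (y axis) per library, by target (x axis) and condition (colour), with 1 point per library and a line at the mean of 3. TCF7L1 in naive ESC lies at 7 to 8 around Mycn and 8 to 10 around Ccnd1, above all CEpiLC libraries.

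In level, averaged over the 12 libraries of a target, Ccnd1 had 6.83 β-catenin peaks, more than 97.8% of genes, and 5.92 TCF7L2 peaks, more than 98.4%. Of the 3 genes, Mycn ranked highest for SOX2, above 96% of genes, and lowest for TCF7L2, with 1.5 peaks and above 26.3% of genes. Myc had 3 SOX2 and 2.67 β-catenin peaks, above 61.2% and 66.6% of genes, and 3.5 TCF7L1 peaks, above 82.5%. For β-catenin at Myc the group means were 3.67 ± 3.06 for CEpiLC, 3.33 ± 1.53 for naive ESC, 2 ± 1.73 for SOX2-OFF and 1.67 ± 0.577 for SOX2-ON (SD, n = 3 each), and neighbouring groups did not differ beyond their spread.

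Across the 20 group means of log2(peaks + 1), the members were little alike, with Pearson r of 0.395 between Myc and Mycn, 0.186 between Myc and Ccnd1 and 0.287 between Mycn and Ccnd1. The genes on other chromosomes most like Myc were Fkbp1b (r = 0.78), Wdcp (0.755) and Uck1 (0.753), of 17695 compared. Those most like Mycn were Slc22a5 (0.913), Foxp4 (0.898) and Ccdc160 (0.894), and those most like Ccnd1 were Emx2 (0.862), Scarb1 (0.853) and Nsd3 (0.845). All share the same libraries and list lengths, so these values are descriptions.

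Among 17 genes of the MYC network and the G1 phase, 0 passed after adjustment for any target, as was so for all genes. At an unadjusted p under 0.05 the 5 targets gave 0 to 4 genes each way. At an unadjusted p under 0.05, TCF7L1 peaks were more numerous with high SOX2 at 4 genes and fewer at 0, and the median difference was 1.33 against 0.167 over all genes. Of all genes 6.4% were more numerous at this p (1364, against 187 fewer). With lists cut to the 1628 peaks of CEpiLC replicate 1, 12 of the 17 genes had a TCF7L1 peak, 0 were more numerous and 1 fewer, with a median of -0.167. At that length peaks were more numerous at 284 and fewer at 548 of the 11892 genes with a peak. The 4 genes were Mga (2.83 more, exact permutation p = 0.01, adjusted p = 0.516), a MAX partner, Mlx (1.83), a MAX-like protein, Mycl (2.33), another MYC paralogue, and Cdk6 (5.17), a kinase partner of cyclin D1. For SOX2 1 gene was higher, Ccne2 (cyclin E2), at 2.17, and 1 lower, Ccnd3 (cyclin D3), at -3.17.

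For the 14 WNT target genes, 3 had an unadjusted p under 0.05 with fewer LEF1 peaks at high SOX2, where 1.48% of all genes did (317, against 620 with more), and 0 had one with more. The median difference of the list was -2.83 against 0.167 over all genes. With LEF1 lists of equal length (4443 peaks) it was -1.33, with 3 fewer and 0 more. At that length 673 of 20297 genes had fewer and 178 had more, so the balance over all genes was reversed. With the main counts the 3 were T (Brachyury, a primitive streak factor), the WNT effector Sp5 and the caudal factor Cdx2. Their differences were -6 (exact permutation p = 0.01, adjusted p = 0.92), -4.67 and -2. Myc, at 1.67, had the opposite sign. Both gene lists were chosen with earlier results of these data known, and the study itself presents binding at T and Cdx2. The shares of the lists are therefore descriptions and no test of such genes. None of the 14 passed after adjustment for any target, as was so for all genes. The median β-catenin difference of the list was -2.25 against 0.333 over all genes.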

How the data were processed

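ChIP-seq libraries had been made from cells fixed with a protein cross-linker and formaldehyde and sequenced from 1 end (76 bp). As the methods of the study describe, the authors ran the nf-core ChIP-seq pipeline, aligned reads with BWA to mm10 and called narrow peaks per library with MACS (MACS2 in the labels) at q below 0.05, without pooling replicates. The deposited fold is a ratio of summit signal to local background. Beside it the authors deposited a −log10 p-value and a −log10 q-value of the same summit. The deposited score, derived by the authors' caller from the q-value, was not used. How inputs were paired with libraries is not given in the sources used here, and the 4 inputs have no list analysed here. Read depth is unknown, so no interval for counting error is given. The lengths of the short lists are given near the start of the Results, and beside single results mainly for TCF7L1.

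Peaks were ranked by fold within a library and the first 20000 counted. Gene models came from the basic GENCODE M21 annotation. Differences in peaks per window were tested with exact permutation, two-sided, and adjusted by the Benjamini-Hochberg method over all protein-coding genes with a peak. Replicates are separate experiments. Named sites were those in 3 of 3 libraries of a group, ranked by number of libraries, at most 8 per gene. Motifs were searched within 100 bp of summits on GRCm38.p6, and all values were computed in Python 3.11.15 with numpy 2.4.6 and pandas 2.3.3. The test of high against low SOX2, the joining of sites and the motif search were checked on simulated data. The test between wild-type and transgenic cells and the alternatives were not. The 3 genes and both gene lists were chosen with earlier results of these data known. Alternatives were lists of equal length per target, ranking by −log10 p-value, a 50 kb window, absence read from all deposited peaks, leaving out a replicate number, a replicate block and, added after seeing the data, summits within 150 bp and equal-length lists for the gene lists. The test of a difference between wild-type and transgenic cells was also added then.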

Additional observations from a re-analysis of the deposited data

Results flagged for a closer look

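The TCF7L1 counts at Mycn and Ccnd1 stood out because their difference between conditions was not alike in the wild-type and the transgenic cells. Around Mycn, naive ESC minus CEpiLC was 6.33 peaks and SOX2-ON minus SOX2-OFF was -1.67, so the 2 differed by 8 (exact permutation p = 0.005, adjusted p = 0.503). Around Ccnd1 the values were 5 and -2.67, a gap of 7.67 (exact permutation p = 0.02, adjusted p = 0.517), with every naive ESC library above every CEpiLC library and every SOX2-ON library below every SOX2-OFF library. Neither passed after adjustment over 21319 genes, which at a smallest p of 0.005 a single gene could not do by itself. The TCF7L1 list of CEpiLC replicate 1 held 1628 peaks, and with all TCF7L1 lists cut to that length both differences became 0.667 (exact permutation p = 0.4 at Mycn and 0.65 at Ccnd1, adjusted p = 1). With that cut 11892 genes kept a TCF7L1 peak, against 21319 before, so the counts themselves fell too. The TCF7L1 lists of SOX2-ON replicates 1 and 2 held 21224 and 16482 peaks, and their part was not tested. The test of a difference between wild-type and transgenic cells was added after the data had been seen. It exchanges naive ESC with SOX2-ON libraries, which also differ in medium and cell state, so these cannot be told apart from the line. Groups of 3 libraries were too small to look for single outlying libraries.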

How the results depend on the processing

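No window difference passed after adjustment under any alternative. At a smallest p of 0.005 or more a single gene could not pass by itself, so this does not bear on stability. Most differences kept their sign. LEF1 at Myc fell from 1.67 to 0.667 with equal-length lists and to 0.833 with a 50 kb window, and had an exact permutation p of 0.06 when ranked by −log10 p-value. At Ccnd1 LEF1 reached p = 0.03 (exact permutation) with a 50 kb window. With lists of equal length per target, β-catenin at Myc turned to 0.5, TCF7L1 at Ccnd1 to -1 and TCF7L2 at Ccnd1 to -0.5. With a 50 kb window β-catenin at Myc turned to 0.167, LEF1 at Mycn to -0.167 and TCF7L1 at Ccnd1 to -0.5, and ranking by −log10 p-value turned β-catenin at Ccnd1 to 0.5. Leaving out 1 replicate number, β-catenin at Myc ranged from -1.25 to 1.25, the positive value coming without replicate 1, and TCF7L2 at Myc from -0.5 to 1.75, turning negative without replicate 1 or 2. These tests had 36 assignments and could not pass. The TCF7L1 difference between wild-type and transgenic cells, with alternatives chosen after seeing the data, was 0.667 at both Mycn and Ccnd1 with equal-length lists and 6.67 and 3 with a 50 kb window, and it ranged from 7 to 9.5 and from 6 to 10 when a replicate number was left out.

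Counts of differential sites moved more. Equal-length lists gave 0 for TCF7L1 between CEpiLC and naive ESC, where 6 had been called, and 2 for β-catenin between SOX2-ON and SOX2-OFF. Ranking by −log10 p-value gave 3 for SOX2 between CEpiLC and naive ESC. With absence read from all deposited peaks, SOX2, LEF1 and TCF7L2 gave 2, 1 and 0 between CEpiLC and naive ESC, and SOX2, β-catenin, TCF7L1 and TCF7L2 gave 0 each between SOX2-ON and SOX2-OFF. Leaving out a replicate number (2 of 2 against 0 of 2) gave, between CEpiLC and naive ESC, 5 to 8 for SOX2, 3 to 6 for β-catenin, 2 to 4 for LEF1, 7 to 11 for TCF7L1 and 1 to 3 for TCF7L2. Between SOX2-ON and SOX2-OFF it gave 3 to 5 for SOX2, 2 to 3 for β-catenin, 1 to 3 for TCF7L1 and 1 to 3 for TCF7L2. The cause was not tested, except that fewer libraries make the rule easier to meet.

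Correlations of deviations between same-numbered libraries ran from -0.0374 to 0.155. The highest were those of TCF7L1 between SOX2-ON and SOX2-OFF, at 0.155, 0.119 and 0.0901. Libraries of different number were not compared, so whether replicate numbers pair the libraries was not tested. A replicate block (64 assignments) leaves the differences themselves unaltered (-3 for SOX2 at Ccnd1, 1.67 for LEF1 at Myc) and has a smallest p of 0.03125. The exact permutation p went from 0.05 to 0.0625 for the first and from 0.015 to 0.03125 for the second. No adjusted value passed, which at that smallest p a single gene could not do by itself. Of the 17 named sites, 10 gained over 1.5 times as many libraries when all deposited peaks counted, and 3 lost as much with summits within 150 bp. A missing peak in a short list does not show absence of binding, the folds depend on an unknown depth, and 3 against 3 libraries cannot go below an exact permutation p of 0.1.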
